A study of Rattus norvegicus with 4 samples.

Results

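NR8383 is a line of rat alveolar macrophages that was started from lung lavage, and arrays of its RNA carried signal from several genes known mainly from other cell types. The 9 genes described here mark epithelium or endothelium, except Shbg, which was set against a list of liver genes. They are Napsa, Vwf, Pigr, Shbg, Sftpc, Sftpb, Epcam, Pecam1 and Cdh5. They were chosen by gene symbol, with their signals already known, and were found through the RefSeq transcript that each probe names, out of 16419 named genes measured on every array. Together they have 12 probes and 21 spots per array. Of the 9 genes, 4 (Napsa, Vwf, Pigr and Shbg) had a probe well above background on all 4 arrays, and the other 5 did not. Well above background is the call of the scanner software that a spot's signal stands clear of its background. Over all named genes 11.9% met that criterion. By probe, 4 of the 12 were called on all 4 arrays and 6 on none, where the shares over all 45598 probes were 7.04% and 80.3%. As the signals were used in choosing the genes, that difference is a description and was not tested.

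The samples were 4 cultures, each given NRCWE006 for 4 h. NRCWE006 is a multi-walled carbon nanotube, made of nested carbon cylinders, and its dose was 1 cm2 of surface for every cm2 of culture. All 4 were NR8383 cells after 20 passages, seeded for 48 h in 25 cm2 flasks, and they form 1 group of 4 biological replicates. The cells come from a single line, so the cultures do not stand for different animals. Unexposed cultures, which the study also describes, were not analysed here, so no value is an effect of the nanotubes. Each culture was hybridised to 1 single-colour Agilent array, so that precision is limited by there being 4 arrays. Where arrays are compared, levels are log2 signals relative to the 75th percentile of the probes detected on the same array. Probes differ in how brightly they bind, so levels are compared between arrays and not between probes. In a bulk culture a low level in every cell and a high level in few cells cannot be told apart.

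Alveolar type 2 cells of the lung epithelium make surfactant, a film of lipid and proteins B and C that lowers surface tension, and they process these proteins from larger precursors with several proteases. Endothelial cells line vessels, joined by VE-cadherin and PECAM1, and store von Willebrand factor in granules called Weibel-Palade bodies. Alveolar macrophages live on the epithelial surface and take up and degrade surfactant, but are not known as the producers of its proteins.

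The macrophage identity of the cells was checked first. Of 19 macrophage identity genes measured, 8 were detected (well above background on all 4 arrays), against 11.9% of all named genes. Lyz2, the macrophage lysozyme, had signals of 2133, 1745, 1218 and 1285 in replicates 1 to 4, and Fcgr1a, a high-affinity immunoglobulin G receptor, had 239, 174, 161 and 119. Cd68, a lysosomal glycoprotein of phagocytes (34.6, 16.3, 16.6 and 34.1), and Spi1, the transcription factor PU.1, were also detected. Of the 19 genes, 5 were well above background on 1 to 3 arrays and 6 on none, among them Adgre1 (F4/80) and Itgam (CD11b). Lack of a call was thus also seen among genes of the macrophage list. None of 10 fibroblast and smooth muscle markers, which start with Col1a1 and Col1a2, and none of 8 lymphocyte markers, which start with Cd3e and Cd3d, was well above background on any array. The software called between 4252 and 6476 probes well above background per array, and no gene spot was saturated. Replicate 4 stood apart. On it 2952 probes (6.47% of 45598) were well above background that were so on no other array, against 96 to 918 such probes for each of the other arrays. The 95th percentile of its negative control spots, which match no rat transcript, was a signal of 6.71, against 3.53 to 4.04 on the others. Results that rest on replicate 4 are therefore also given without it.

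Promoter windows of Pigr, Shbg, Sftpb and Epcam (4 of the 9 genes) were matched in RefSeq. The windows of the 3 of these that were well above background and highest on replicate 4 are shown, from 250 bases before to 50 bases after the annotated start, in build GRCr8 and written 5′ to 3′ along the gene's strand. Capitals mark matches, on either strand, to the E-box CACGTG bound by basic helix-loop-helix zipper factors, the AP-1 site TGANTCA, or GAGGAA, the core of the PU.1 box. The motifs were chosen after the data were seen, and the matches do not overlap.
Pigr, chr13:44850932-44851231, plus strand: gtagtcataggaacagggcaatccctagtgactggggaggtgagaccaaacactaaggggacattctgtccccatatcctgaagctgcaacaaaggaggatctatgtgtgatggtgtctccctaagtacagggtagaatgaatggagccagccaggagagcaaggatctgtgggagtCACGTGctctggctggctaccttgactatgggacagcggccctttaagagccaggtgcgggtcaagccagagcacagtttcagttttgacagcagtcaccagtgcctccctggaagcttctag
Shbg, chr10:54834852-54835151, minus strand: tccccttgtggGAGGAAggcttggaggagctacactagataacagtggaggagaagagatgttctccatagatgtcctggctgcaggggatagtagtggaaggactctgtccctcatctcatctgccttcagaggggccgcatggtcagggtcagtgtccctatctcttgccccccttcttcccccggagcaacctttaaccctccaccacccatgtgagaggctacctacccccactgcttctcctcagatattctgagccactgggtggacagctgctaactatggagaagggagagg
Sftpb, chr4:105917338-105917637, plus strand: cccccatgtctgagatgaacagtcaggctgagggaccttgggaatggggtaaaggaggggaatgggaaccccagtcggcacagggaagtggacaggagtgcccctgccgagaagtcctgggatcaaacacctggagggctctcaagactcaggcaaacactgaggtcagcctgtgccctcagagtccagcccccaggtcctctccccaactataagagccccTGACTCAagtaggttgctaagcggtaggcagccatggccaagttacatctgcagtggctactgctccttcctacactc
Each window held a single match, and to a different motif: the E-box in Pigr, the PU.1 core in Shbg and the AP-1 site in Sftpb. Of 33469 windows of 300 bases, 6.42% hold the E-box, 7.33% the AP-1 site and 27.6% the PU.1 core, and the window of Epcam, a gene called on no array, also holds 1 AP-1 site. Binding was not measured.

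Napsa encodes napsin A, an aspartic protease that processes the precursor of surfactant protein B in type 2 cells. Its only probe, printed as 1 spot, had signals of 361, 287, 223 and 249 in replicates 1 to 4. Every array thus carried it far above the negative controls, by 37.2 to 89.3 times their 95th percentile. The scanner's own error estimate put each signal at 9.82 to 9.97 times its error. On the scaled log2 scale its level was 0.01 ± 0.12 (SD, n = 4), and -0.05 ± 0.07 (SD, n = 3) without replicate 4. The 4 cultures lay close together on this scale: of 1946 detected genes, 86.3% had a larger SD than Napsa. The median SD over these genes was 0.24, with 0.10 and 0.52 as the 10th and 90th percentiles. The SD was 0.30 without scaling and 0.70 when scaled by all gene probes. Of all gene probes 80.3% were called on no array, so the latter scale rests largely on uncalled probes. The order of the arrays depended on the scaling too, as replicate 4 lay 0.21 above the mean of the other arrays after scaling and fell by 0.19 relative to it without scaling.

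**Figure D1:**
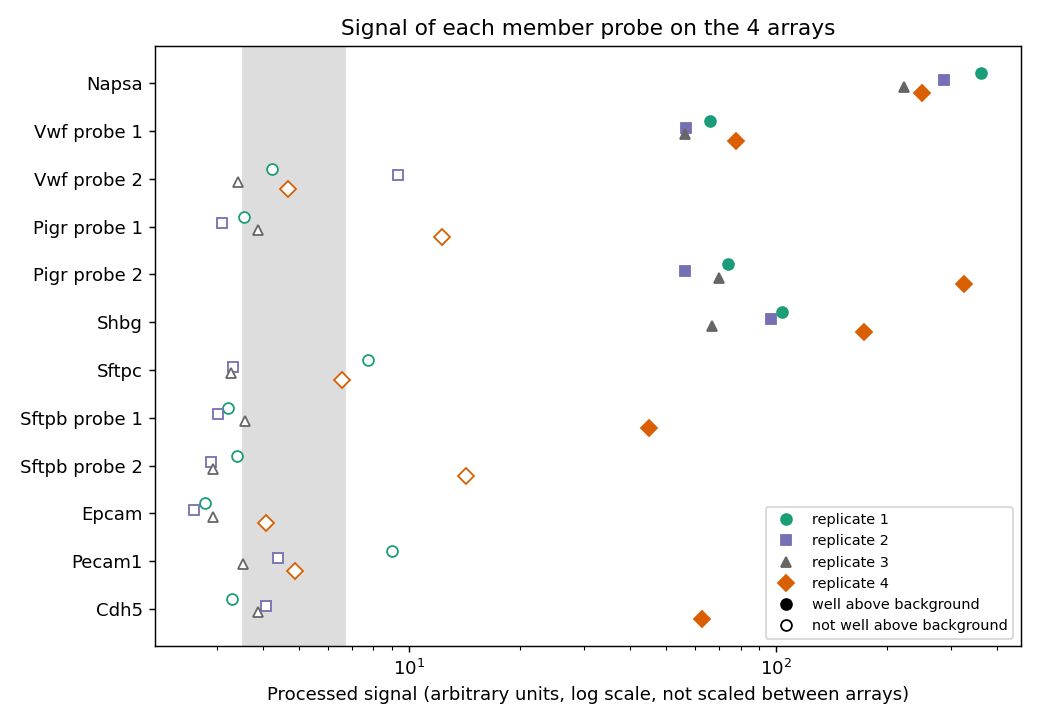
Processed signal of each of the 12 probes on the 4 arrays, on a log axis in arbitrary units without scaling between arrays. Filled points are well above background, open points are not, and the grey band spans the 95th percentiles of the negative controls (3.53 to 6.71). Napsa, 1 of the Vwf probes, 1 of the Pigr probes and Shbg are filled on every array, while Sftpb probe 1 and Cdh5 are filled on replicate 4 only.

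The surfactant protein genes Sftpc and Sftpb were not detected with Napsa. Sftpc, the gene of surfactant protein C, had signals of 7.73, 3.32, 3.28 and 6.58 in replicates 1 to 4. None of these was called well above background, and only replicate 1 exceeded the 95th percentile of its negative controls. Sftpb, the gene of surfactant protein B, has 2 probes, with signals of 3.22, 3.02, 3.58 and 45 for probe 1 and 3.40, 2.90, 2.93 and 14.3 for probe 2. On replicates 1 to 3 both probes lay below the 95th percentile of the negative controls. On replicate 4 both lay above it, by 6.71 and 2.12 times, and probe 1 was well above background. The median spot signal of probe 1 exceeded its local background by 34 on replicate 4, against 9, 8 and 3 on replicates 1 to 3. For probe 2 that difference was 6 on replicate 4, against 2, 7 and 4.5, so replicate 4 did not stand out by it. Across the fixed list of surfactant processing and lamellar body genes, 1 of 11 measured was detected, which was Napsa itself. Another 3 were well above background on 1 to 3 arrays, among them Ctsh, the protease cathepsin H, which also processes surfactant proteins (33.1, 34.7 and 21.3 on replicates 1 to 3, where it was called, and 19 on replicate 4). Sftpa1, a surfactant collectin, was well above background on no array.

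Napsa was also set against its own protein family. Of 8 aspartic proteases, 3 were detected and 5 were well above background on no array, among them cathepsin E (Ctse). The detected ones besides Napsa were Ctsd, the lysosomal protease cathepsin D, with signals of 924, 638, 502 and 572 in replicates 1 to 4, and Cym, the gene of the stomach protease chymosin, with 28.7, 44.3, 31.3 and 35.2. The scaled level of Ctsd had an SD of 0.12 over the arrays, equal to that of Napsa to 2 decimals, and that of Cym had 0.51. The files give no probe sequences, so hybridisation of one family member's RNA to another's probe was not tested.

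Of the wider lung epithelial list, 2 of 19 genes were detected, Napsa and Etv5. Etv5, an ETS transcription factor of type 2 cells that other cell types also use, had signals of 75.5, 53.1, 34.0 and 22.8 in replicates 1 to 4, lowest on replicate 4. Its level was -2.71 ± 0.44 (SD, n = 4). Nkx2-1, the transcription factor that defines the lung epithelium, was called on no array, with signals between 3.00 and 9.08. The type 1 cell gene Ager, the club cell gene Scgb1a1 and the ciliated cell factor Foxj1 were likewise called on none, with highest signals of 4.67, 4.73 and 4.2. In all, 13 of the 19 were well above background on no array.

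Vwf encodes von Willebrand factor, the clotting glycoprotein of endothelial cells and platelets. Its probe 1 had signals of 65.9, 56.8, 56.6 and 77.9 in replicates 1 to 4, well above background on each. Probe 2 for the same transcript had 4.22, 9.30, 3.42 and 4.68 and was called on none. The probes of Vwf thus disagreed, which was also the case for 272 of the 581 detected genes that have several probes (46.8%). The scaled level of probe 1 was -2.11 ± 0.44 (SD, n = 4), highest on replicate 4 except when scaled by all gene probes, and 15.6% of detected genes had a larger SD. Without replicate 4 the level was -2.30 ± 0.24 (SD, n = 3).

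The other endothelial genes were not detected with it. Pecam1, an adhesion molecule of endothelial cells, platelets and several leukocytes, had signals of 8.98, 4.41, 3.53 and 4.88 in replicates 1 to 4, never called. On replicates 1 and 2 its signal was 2.22 and 1.25 times the 95th percentile of the negative controls. Cdh5, encoding VE-cadherin, had 3.30, 4.07, 3.89 and 62.8, so that it was well above background on replicate 4 and on no other array, though replicate 2 exceeded the 95th percentile of its negative controls by 1.15 times. As the other arrays give only an upper bound, no fold is given. Of 19 endothelial markers measured, 1 was detected (Vwf), 3 were called on replicate 4 alone (Cdh5, Flt1 and Nos3) and 15, starting with Pecam1 and the receptor gene Kdr, were called on no array. Vwf was also the only 1 of 9 megakaryocyte and platelet markers detected. Gp1ba and Gp1bb, subunits of the platelet receptor for von Willebrand factor, were called on no array. Of 12 measured genes that form Weibel-Palade bodies or handle von Willebrand factor, 4 were detected. Besides Vwf these were Cd63, a tetraspanin of lysosomes and Weibel-Palade bodies, with signals of 798, 544, 509 and 440 in replicates 1 to 4, Hps6, which takes part in forming lysosome-related organelles (78.1, 36.8, 25.2 and 34.2), and Exoc6b, an exocyst subunit (48.7, 15.2, 24 and 32.7). The 3 serve other cell types as well. Angpt2 and Rab27a of that list were called on no array.

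Pigr encodes the polymeric immunoglobulin receptor, which carries immunoglobulin A across epithelia. Its probe 2 had signals of 73.9, 56.3, 69.9 and 324 in replicates 1 to 4. All were well above background, and replicate 4 stood clear of the others. The same was seen before background subtraction, where the median spot signal was 356 on replicate 4 against 90 to 116 on the others, over local backgrounds of 24 to 25. Probe 1 for the same transcript was called on no array, with signals of 3.55, 3.10, 3.87 and 12.3, again highest on replicate 4. The level of probe 2 was -1.48 ± 1.37 (SD, n = 4), and 6 of the 1946 detected genes had a larger SD. On replicate 4 it lay 2.69 above the mean of the other arrays, where the median of all detected genes lay at -0.07. Without replicate 4 the level was -2.15 ± 0.34 (SD, n = 3). Of the other immunoglobulin transport genes, 2 of 3 measured genes including Pigr were detected. The second was Fcgrt, the neonatal Fc receptor, at -2.69 ± 0.19 (SD, n = 4) with 68.4, 47.4, 32.3 and 31.2, while Trim21, a cytosolic antibody receptor, was called on no array.

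**Figure D2:**
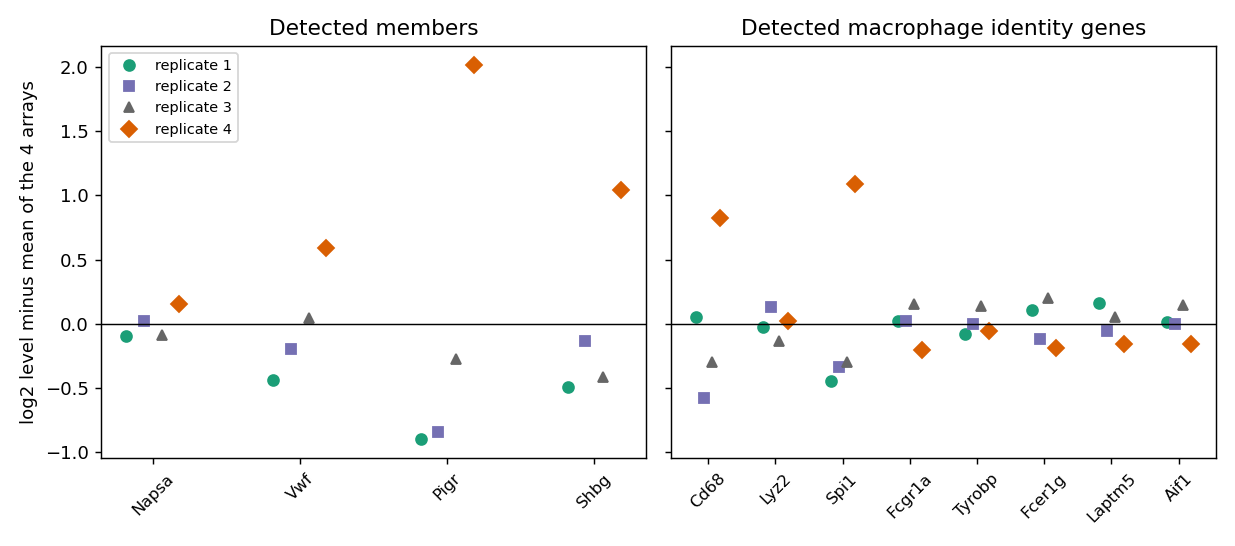
Scaled log2 level of each detected gene minus its own mean over the 4 arrays, for the 4 detected members (left) and the 8 detected macrophage identity genes (right), with 1 point per array. Replicate 4 is the highest point for all 4 members, and among the macrophage genes for Cd68 and Spi1 only. Replicate 4 was not highest for Napsa, Vwf and Shbg when scaled by all gene probes, nor for Napsa without scaling or with normexp.

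Shbg encodes sex hormone-binding globulin, a steroid carrier that in the rat is made in the testis as androgen-binding protein. Its probe is the only 1 of the 12 printed 10 times per array, and all spots that carried no outlier flag were well above background. The mean signals were 104, 96.8, 66.8 and 174 in replicates 1 to 4, over these 10, 6, 10 and 9 spots. On replicate 4 the spots ranged between 124 and 241, while the spots of the other arrays reached 120 on replicate 1, 108 on replicate 2 and 86.4 on replicate 3. The spots of replicate 4 thus did not overlap with those of any other array. Such a gap on the high side, after scaling, was found for 10 of the 709 detected probes printed 10 times (1.41%), and one on the low side for 3.24%. The level was -1.40 ± 0.71 (SD, n = 4), and -1.75 ± 0.19 (SD, n = 3) without replicate 4. Of the detected genes, 3.65% had a larger SD. Spots of an array share 1 culture, so they show the precision of the array and not the spread between cultures.

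**Figure D3:**
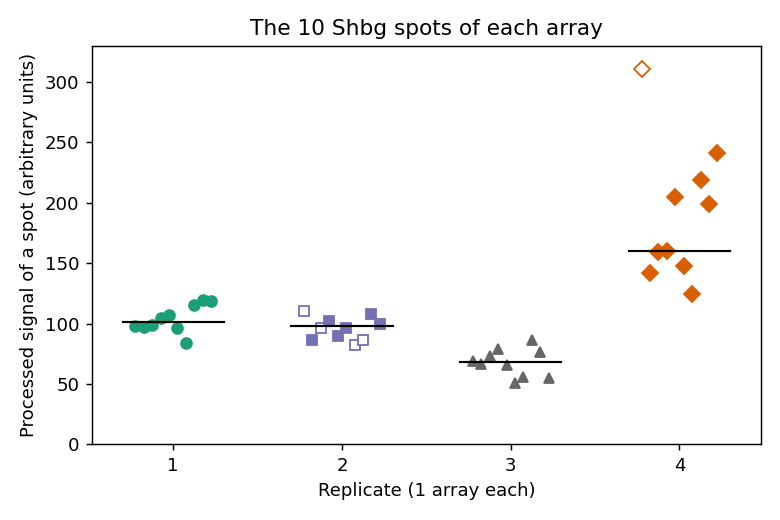
Processed signal of every Shbg spot on each array, on a linear axis in arbitrary units. Open points carry an outlier flag and were left out, and the bar is the median of the spots used, which was 160 on replicate 4 and 67.8 to 102 on the others.

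All 4 detected members were thus highest on replicate 4 after the main scaling, and 3 of them, Vwf, Pigr and Shbg, ranged over more than 2-fold between arrays. Vwf passed 2-fold narrowly, at 2.03-fold. Its SD of 0.44 was 0.27 after quantile normalization and 0.27 with normexp background correction. Of all detected genes, 30.1% were highest on replicate 4, 15.3% ranged over more than 2-fold and 8.79% did both. Scaling by all gene probes put the median detected gene on replicate 4 at -1.64 relative to the mean of the others, and with it Napsa, Vwf and Shbg below 0. Relative to the median detected gene, replicate 4 lay 0.28 higher for Napsa, 0.86 for Vwf, 2.76 for Pigr and 1.46 for Shbg under both scalings and without scaling. These settings shift all genes of an array equally, so the differences could not change between them. With normexp background correction these differences were -0.10, 0.33, 1.80 and 0.86.

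Of the 14 genes on the liver list, Shbg was the only 1 detected. In the rat Shbg is made in the testis, and no list of testis genes was examined. Alb and Ttr, the genes of the plasma proteins albumin and transthyretin, were called on no array, with signals of at most 4.41 and 5.37. The apolipoprotein genes Apoa2 and Apoc3 were called on replicate 4 alone.

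The last member, Epcam, is a surface adhesion molecule of most epithelia. Its signals were 2.79, 2.60, 2.93 and 4.08 in replicates 1 to 4, below the 95th percentile of the negative controls on each. Of 19 general epithelial markers, 1 was detected (Pigr) and 14 were called on no array, starting with Epcam and Cdh1, the gene of E-cadherin. St14, a membrane serine protease, was called on replicates 1 to 3 with 69.4, 52.7 and 40.8 and had 25.1 on replicate 4. Krt8, an epithelial keratin, had 3.14, 2.85 and 3.14 on replicates 1 to 3 and 137 on replicate 4, where alone it was called, and its partner keratin gene Krt18 was called on none.

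**Figure D4:**
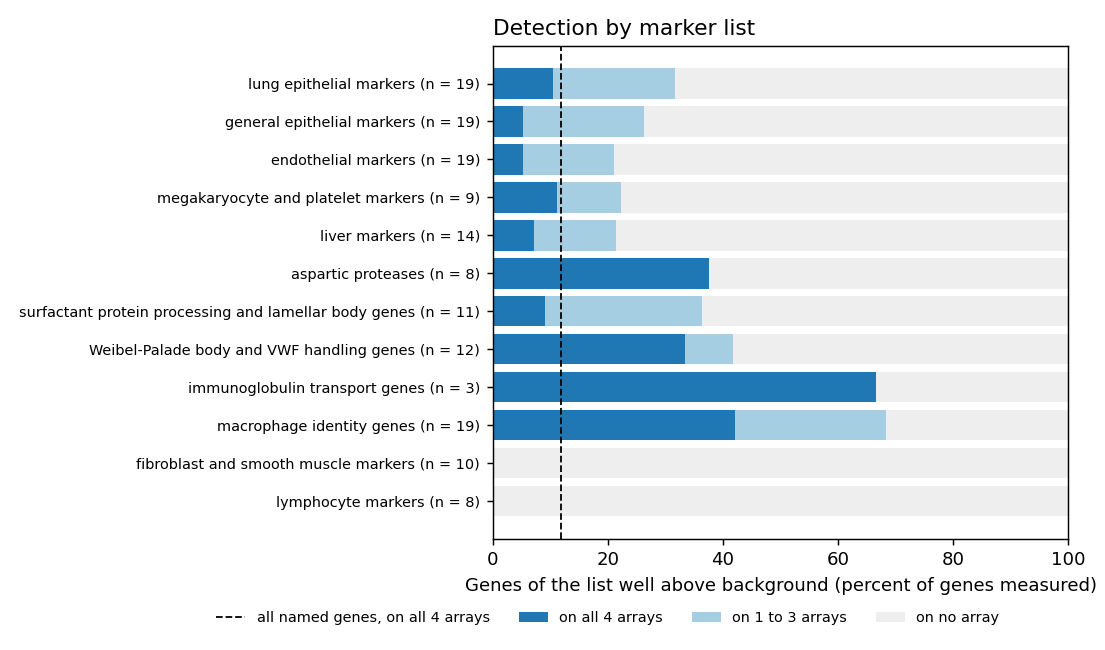
Share of the measured genes of each fixed list that were detected, called on 1 to 3 arrays only, or called on none, with the number of genes in brackets. The dashed line marks the 11.9% of all named genes detected on all arrays, and the lung epithelial (2 of 19), general epithelial (1 of 19) and endothelial (1 of 19) lists lie below it while the macrophage list (8 of 19) lies above it.

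The epithelial and endothelial lists together hold 49 measured genes that are not among the 9. Of these, 1 was detected (Etv5), 39 were called on no array and 9 on 1 to 3 arrays. Of the 9, 6 were called on replicate 4 alone: Sftpd, Hopx, Krt8, Cldn4, Flt1 and Nos3, named after their values were seen. Among all named genes, 7.19% were called on replicate 4 alone and 17.2% on 1 to 3 arrays. Macrophage genes did this too, as Marco, Mertk and Cd163 of the macrophage list were called on replicate 4 alone. The summed signal of the general epithelial markers other than the members was 275 on replicate 4, against 101 to 142 on the other arrays. Without Krt8 it was 138 on replicate 4, against 139, 111 and 97.6 on replicates 1 to 3. The sums here are of signals not scaled between arrays, and they include genes called on no array. The median signal of the negative controls was 4.65 on replicate 4, against 2.98 to 3.36 on the others. The 75th percentile used for scaling was 223 on replicate 4, against 236 to 384 on the others. The endothelial markers summed to 126, against 49.9 to 61.0, and without Nos3 to 94.9, against 46.8 to 57.6. The lung epithelial markers summed to 145, against 100.0 to 137, and without Sftpd to 112, against 97.0 to 133. The megakaryocyte and platelet markers other than Vwf summed to 39.2, against 25.2 to 53.1. Krt8, Nos3 and Sftpd were left out, after the values were seen, as the gene of each list with the largest gain on replicate 4. The lists that were never called also summed higher there, with 62.6 against 33.9 to 39.3 for fibroblast and smooth muscle markers and 89.8 against 36.9 to 42.6 for lymphocyte markers. The macrophage list summed to 4929 on replicate 4, against 5528 to 8908. Its unscaled sums ranked the arrays in the same order as the 75th percentile used for scaling. The part of these shifts in the Pigr, Shbg, Sftpb and Cdh5 signals of replicate 4 was not tested.

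The array surface was also examined, by the 6 spots nearest to each of the 11 probes printed as 1 spot. Their median difference between replicate 4 and the mean of the other arrays, in log2 signal without scaling, ranged between -0.02 and 0.58 over the 11 probes. It was 0.17 around Pigr probe 2, -0.02 around Sftpb probe 1 and 0.23 around Cdh5, and 0.58 around Vwf probe 1, 0.42 around Pigr probe 1 and 0.34 around Sftpb probe 2. Around Vwf probe 1, 3 of the 6 spots were well above background on replicate 4 and 1 on each other array. Around Pigr probe 2 it was 3 spots on each array, and around Sftpb probe 1 it was 2. The part of such local differences in the member signals was not tested.

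Genes that neighbour the detected members on the chromosome were looked up in the RefSeq table of assembly GRCr8. Next to Napsa on chromosome 1 lies Nr1h2, the oxysterol receptor LXR beta, which was detected at -2.31 ± 0.73 (SD, n = 4) and lowest on replicate 3. The nearest measured genes around Vwf were Cd9, called on 3 arrays, and Ntf3, called on none. Those around Pigr, C13h1orf116 and Fcmr, were called on none. Sat2 lies inside the annotated span of Shbg, and both it and Atp1b2, on the other side, were called on no array, with signals on replicate 4 of 4.02 and 4.61.

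The detected genes whose pattern over the 4 arrays came nearest were found by the root mean square difference of levels, each centred on its own mean. For Napsa they were Gsto1, Atp6v1g1 and Sdf2l1, at 0.015, 0.021 and 0.026, and 165 genes lay within 0.1 of it. For Vwf they were Ivd, Tsen54 and Ftl1, at 0.038, 0.069 and 0.077, with 10 genes within 0.1. Shbg had Use1, C12h12orf43 and Coro1a at 0.056, 0.069 and 0.090, with 4 genes within 0.1. For Pigr the nearest were N4bp3, Osgep and Ctnna1 at 0.19, 0.22 and 0.24, and no gene lay within 0.1. The likeness rests on 4 arrays.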

How the data were processed

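Spot intensity was measured for 4 exposed cultures, 1 single-colour (Cy3) Agilent array each. The deposited processed signal is a linear intensity from which the scanner software had subtracted background. That software was Feature Extraction 11.0.1.1, as named in the submitters' processing notes, and arrays were not scaled to each other. Median spot and background intensity columns, deposited without subtraction, served 1 alternative. The build in the file headers is older than GRCr8, the assembly of the RefSeq gene table, so only the promoter windows carry coordinates, in GRCr8.

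Control spots (4259) and spots flagged non-uniform or population outlier (546 to 1296 per array) were left out, and log2 signals of a probe's spots were averaged. A probe was called when over 50% of its kept spots were well above background, and detected when called on all 4 arrays. Accessions without versions named 21109 of 45598 probes (46.3%). A gene took its detected probe with the highest mean level. No test of a difference was run, as there is 1 group and the members and lists were chosen with earlier results of these data known.

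The text names all members, up to 4 detected and the first 2 never-called genes per list, nearest measured neighbours and the 3 most alike genes. Some genes that this rule names are not reported here. Ager, Scgb1a1, Foxj1, Nkx2-1, Ctsh, St14, Krt8, Krt18, Apoa2, Apoc3 and the genes called on replicate 4 alone were added after their values were seen. Python 3.11.15, numpy 2.4.6, pandas 2.3.3 and limma 3.58.1 in R 4.3.3 were used. The calculation of detection, scaling and array differences was tried on simulated data without the raised negative controls of replicate 4. That trial checks the calculation and not the calls made here. The promoter motifs, the spots around each probe and the use of unscaled signals in the outlier ratio of undetected probes were chosen after the data were seen.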

Additional observations from a re-analysis of the deposited data

Results flagged for a closer look

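Of 27 probes examined, 12 of members and 15 of other genes, 5 had 1 array far from the others. They were 4 probes of 3 members and 1 of a macrophage gene. The share over all probes is not given here. The measure divides the gap between the outlying array and its nearest neighbour by the whole range and compares it with Dixon's 95% critical value for 4 samples. It used log2 levels for detected genes and log2 signals as deposited for probes that were not detected. The ratio was 0.937 for Sftpb probe 1, 0.900 for Sftpb probe 2, 0.929 for Cdh5 and 0.840 for Pigr probe 1, a probe called on no array. It was 0.904 for Spi1, the PU.1 gene, with signals of 32.0, 25.3, 21.8 and 53.9 in replicates 1 to 4. The outlying array was replicate 4 for all 5. For Sftpb probe 2 this holds for the processed signal only. Its median spot signal minus local background was 6 there, against 2 to 7 on the other arrays. Chance marks about 1 in 20 groups of independent, evenly measured samples, a share that cannot be set against these values. The members were chosen with these signals known, the 4 member probes lay near the negative controls on replicates 1 to 3, and 2952 probes were called on replicate 4 alone. The ratios are therefore a description. The detected probes of Pigr and Shbg did not exceed this value.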

How the results depend on the processing

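Napsa, Vwf, Pigr and Shbg were the 4 members detected by the scanner's flag, by the 95th percentile of the negative controls, on at least 3 of 4 arrays, with all spots kept and without each array in turn. A gene called on all 4 arrays cannot fail the settings that ask for fewer arrays, so those could only add members. Requiring every probe of a gene left 2 members, Napsa and Shbg, which have 1 probe each and could not fail it, against 9.51% of all named genes. Of the 49 other epithelial and endothelial markers, 1 was detected, against 3 by negative controls and 2 on at least 3 arrays, and 1 to 2 when an array was left out (2 without replicate 4). The share of all named genes detected was 21.1% by negative controls and 14.9% without replicate 4. The median SD of the 4 members, 0.57, was 0.20 without replicate 4, 0.48 after quantile normalization and 0.38 with normexp background correction. Replicate 4 lay above the mean of the other arrays for Pigr under each scaling tried (1.13 when scaled by all gene probes). For Shbg it lay at -0.18, for Vwf at -0.78 and for Napsa at -1.36 when scaled by all gene probes, a setting that moves the median detected gene to -1.64. For Napsa it also lay at -0.19 without scaling and -0.020 with normexp, and relative to the median detected gene at 0.28 with all gene probes as the scale or with no scaling, 0.67 after quantile normalization and -0.10 with normexp. On that measure, which the choice of scale cannot change, Vwf, Pigr and Shbg stayed above 0 after quantile normalization and with normexp. No paired analysis was possible because all samples form 1 group. Most values rest on 1 spot per array, and signals near those of negative controls have no reliable order.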
